A study of Mus musculus with 18 samples.

Results

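Resiquimod given before an inhaled allergen was compared with the allergen alone in the whole lungs of C57BL/6 mice. The 6 arrays of this comparison, 3 per group, were chosen by strain and treatment from the 18 arrays of a study that treated A/J mice in the same way. All 18 mice were male, 16 weeks old and sensitized to ovalbumin, the egg white protein widely used as an experimental allergen. Sensitization used 3 weekly intraperitoneal injections of 100 µg in alum, an adjuvant that favours allergic antibody responses. From 7 days after the last injection, mice inhaled an aerosol for 30 min on each of 3 days. The C57BL/6 ovalbumin group (n = 3) inhaled 1% ovalbumin. The C57BL/6 resiquimod group (n = 3) inhaled 1% ovalbumin in the same way, and received 100 µg of resiquimod (S-28463, R-848) intraperitoneally on 3 days, the first 1 day before the first challenge. The C57BL/6 PBS group (n = 3), sensitized but challenged with buffer, and the matching A/J groups serve below as references. There was no group with resiquimod alone and no vehicle injection is described, so an effect of resiquimod by itself, of the injections and of a change in the allergic response cannot be told apart. Each sample was taken as 1 mouse, so the p-values reflect nothing beyond the spread among these mice.

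Resiquimod is a small imidazoquinoline that activates Toll-like receptor 7, an endosomal sensor of single-stranded RNA, and through it interferon and interleukin-12 production by dendritic cells and macrophages. Allergic lung inflammation in sensitized mice is driven by type 2 cytokines, which turn airway epithelium towards mucus secretion, polarize macrophages to the alternatively activated state and draw in eosinophils. Type 1 immunity, with interferon gamma, natural killer (NK) cells and cytotoxic T cells, is the arm classically set against it.

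Values are the authors' log2 values from robust multi-array averaging (RMA), so a step of 1 is a 2-fold difference, and values near the 25th percentile of all, 3.33, are called the weakest signals. Where one group lies there, background limits the reading and a fall or rise may be larger than measured. A change is the mean of the resiquimod arrays minus the mean of the ovalbumin arrays on that scale, given ± SE with n = 3 per group. A gene is represented by its brightest probe set, and was called when limma's moderated test gave a Benjamini-Hochberg adjusted p under 0.05 over all 45037 probe sets. In whole lung, fewer cells of a type and less RNA per cell cannot be told apart, and this holds for every gene below. The lung's own defining transcripts were present in every array, at levels near the top of the scale (14.03), where a change would be hard to see. Surfactant protein C (Sftpc) read 13.82, 13.85 and 13.80 in the ovalbumin lungs and 13.83, 13.73 and 13.80 in the resiquimod lungs, and the club cell secretoglobin Scgb1a1 read 13.79, 13.77 and 13.76 and 13.76, 13.67 and 13.74.

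Parts of the sample that are not lung tissue varied between arrays. The squamous epithelium keratin Krt4 read 12.32, 3.83 and 4.03 in ovalbumin arrays 1 to 3 and 3.99, 11.91 and 3.91 in resiquimod arrays 1 to 3, so 1 array of each group held squamous mucosa transcripts. The same 2 arrays held skeletal muscle transcripts, with actin Acta1 at 12.04, 5.61 and 5.65 and 4.57, 12.01 and 4.96. The 7 measured squamous and the 8 measured skeletal muscle genes had median changes of -0.16 and -0.13, and limma called none of them, also none at an unadjusted p under 0.05. Cardiac muscle genes separated the groups and are given with the structural genes. As a measure of RNA integrity, the excess of the 3' over the 5' control probe set for beta-actin was 0.42 to 0.67 in the ovalbumin arrays and 0.34 to 0.45 in the resiquimod arrays (exact two-sided permutation p = 0.2, smallest possible 0.1). Ovalbumin array 2 stood apart in it, at 0.67, and in the same measure for Gapdh, at 0.56 against 0.01 to 0.10 in the other 5 arrays (exact permutation p = 0.7 between the groups). Without that array 2605 probe sets were called in the main comparison, against 3520 with all arrays. Leaving out any other single array of the comparison gave 2259 to 2757.

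Resiquimod changed 1891 of 18193 genes (10.4%). It raised 1055 (5.80%) and lowered 836 (4.60%), with median changes of 0.54 and -0.42 among those called. Large changes were more often rises, since 194 genes (1.07%) rose and 64 (0.352%) fell at least 2-fold, while 8 rose and 6 fell at least 8-fold. Those 8 were the NK receptors Klra7 and Klra8, the granzymes Gzma and Gzmb, perforin (Prf1), the Fc receptor Fcgr4, the chemokine Ccl5 and the granule protein Nkg7. The falls of this size were in Chil4, Alas2, Rnase2a, Mgl2, Hbb-b2 and Slc26a4, genes of alternatively activated macrophages, red cells, eosinophil-type ribonucleases and mucous cells. Without the 2 arrays that held squamous transcripts, 2031 of the 45037 probe sets were called, against 3520 (7.82%) with all arrays, and 2259 were called without resiquimod array 3.

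**Figure D1:**
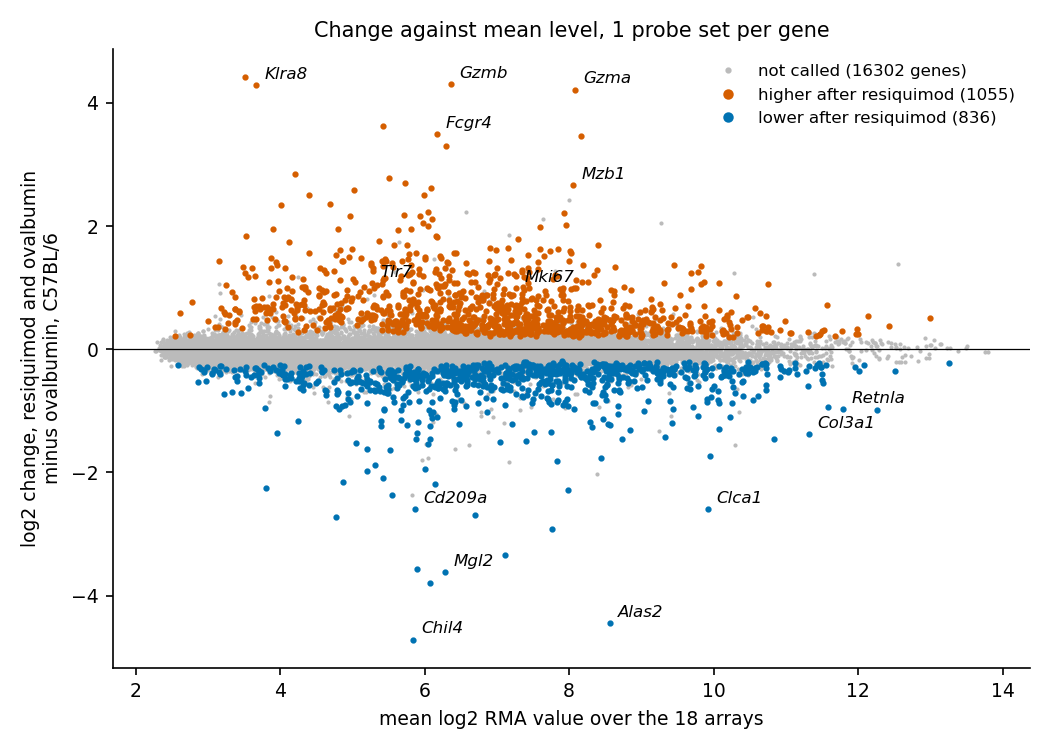
Log2 change (resiquimod and ovalbumin minus ovalbumin, C57BL/6, vertical axis) against the mean log2 value over the 18 arrays (horizontal axis), 1 point per gene. The 1055 genes called higher are orange, the 836 called lower are blue, and the changes of Gzma, Gzmb, Klra8, Chil4 and Alas2 lie farthest from 0 among the labelled genes.

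Cytotoxic lymphocyte genes rose together and by the widest margins. Of 21 measured NK and cytotoxic genes, limma called 19 higher and none lower at an adjusted or unadjusted p under 0.05, with a median change of 2.499 against -0.02 over all genes. Their mean log2 value was 4.53, 4.66 and 4.53 in the PBS lungs, 4.62, 4.55 and 4.64 in the ovalbumin lungs and 7.07, 6.77 and 7.12 in the resiquimod lungs, so ovalbumin alone left the list near the PBS level. Granzyme A (Gzma, Entrez gene 14938), a serine protease released into target cells, read 7.59, 7.23 and 7.63 in the ovalbumin lungs and 11.76, 11.63 and 11.72 in the resiquimod lungs. The groups lay far apart, each within 0.4 of its own members, and the change was 4.22 ± 0.13, or 18.6-fold (adjusted p = 5.04e-12). Granzyme B (Gzmb) read 5.30, 5.13 and 5.11 against 9.62, 9.36 and 9.47, a rise of 4.31 ± 0.18 (19.8-fold, adjusted p = 2.82e-10). Perforin, which forms the pore that granzymes pass through, read 4.18, 4.31 and 4.28 against 8.0, 7.55 and 8.10, a rise of 3.63 ± 0.20 (12.3-fold, adjusted p = 7.48e-09). A dimmer probe set of Prf1 had a change of -0.37 and was called lower, so the 2 probe sets of this gene disagree. Nkg7, a cytotoxic granule membrane protein, read 5.50, 5.57 and 5.57 against 8.98, 8.68 and 8.91 and rose 9.91-fold. Ccl5, a chemokine stored in cytotoxic cells, read 7.39, 7.25 and 7.48 against 10.99, 10.64 and 10.87 and rose 11-fold (3.46 ± 0.15, adjusted p = 2.98e-10). These genes are among the 12 largest rises, which were taken only where the 3 resiquimod lungs were all above the 3 ovalbumin lungs. In each of these genes resiquimod array 2 was the lowest of its group.

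The inhibitory and activating receptors of NK cells followed. Klra7 (Entrez gene 16638) read 2.96, 2.96 and 2.95 without resiquimod, among the weakest signals of the array, and 7.57, 7.13 and 7.42 with it (4.42 ± 0.10, adjusted p = 1.1e-13). Klra8 (Entrez gene 16639) read 3.44, 3.11 and 3.15 and 7.65, 7.26 and 7.66, a change of 4.29 ± 0.13. Both belong to the Ly49 receptor family, and the ending _x_at of their probe set names marks probes that can also bind related sequences, so the family members may not be told apart. A second, dimmer Klra7 probe set had a change of 0.32 and was not called. The killer lectin receptor Klre1 rose from 3.96, 4.09 and 4.09 to 6.83, 6.21 and 6.62 (2.51 ± 0.14). Among members given for completeness of the list and picked after their values were seen, Klrd1 (CD94, 2.63 ± 0.16), Klrk1 (NKG2D, 2.58 ± 0.16), Klrg1 (2.499 ± 0.15) and the natural cytotoxicity receptor Ncr1 (2.36 ± 0.14) rose too. The smallest rises called in the list were Gzmk (1.33 ± 0.20) and the cystatin Cst7 (1.14 ± 0.17), and the 2 members not called were Gzmm and Klrc2.

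Transcription factors of these cells were among the rises. Tbx21 (T-bet), the master regulator of type 1 lymphocytes, read 3.48, 3.41 and 3.43 against 6.48, 5.97 and 6.42 and rose (2.85 ± 0.17, adjusted p = 1.53e-08). Its relative Eomes, needed for NK cell maturation, rose by 1.56 ± 0.15. Both belong to the T-box family, whose binding sites hold the letters AGGTGT. RefSeq (GRCm38.p6) gives the 250 bases before the transcription start for 16 of the measured members. AGGTGT, searched on both strands, stood in 4 of the 16 (25%) and in 13.6% of the 27025 genes with an entry. All 4 were called higher, as were 14 of the 16. The windows of Gzma (chr13:113100982-113101231, minus strand) and Nkg7 (chr7:43436888-43437137, plus strand) are shown since they hold a match beside a large rise, with the match in capitals, read as ACACCT where it lies on the other strand. Such a match is a description of letters, not a mapped site, and the genes shown here and below were picked after their values were seen.
Gzma: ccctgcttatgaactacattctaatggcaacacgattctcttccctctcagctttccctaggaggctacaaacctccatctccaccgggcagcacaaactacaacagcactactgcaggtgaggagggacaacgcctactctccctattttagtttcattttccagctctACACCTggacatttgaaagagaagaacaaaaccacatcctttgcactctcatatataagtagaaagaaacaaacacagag
Nkg7: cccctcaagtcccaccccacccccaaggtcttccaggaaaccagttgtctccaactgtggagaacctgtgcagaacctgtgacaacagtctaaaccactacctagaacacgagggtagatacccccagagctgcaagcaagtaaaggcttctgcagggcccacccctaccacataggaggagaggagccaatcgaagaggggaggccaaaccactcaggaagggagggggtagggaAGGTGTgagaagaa

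**Figure D2:**
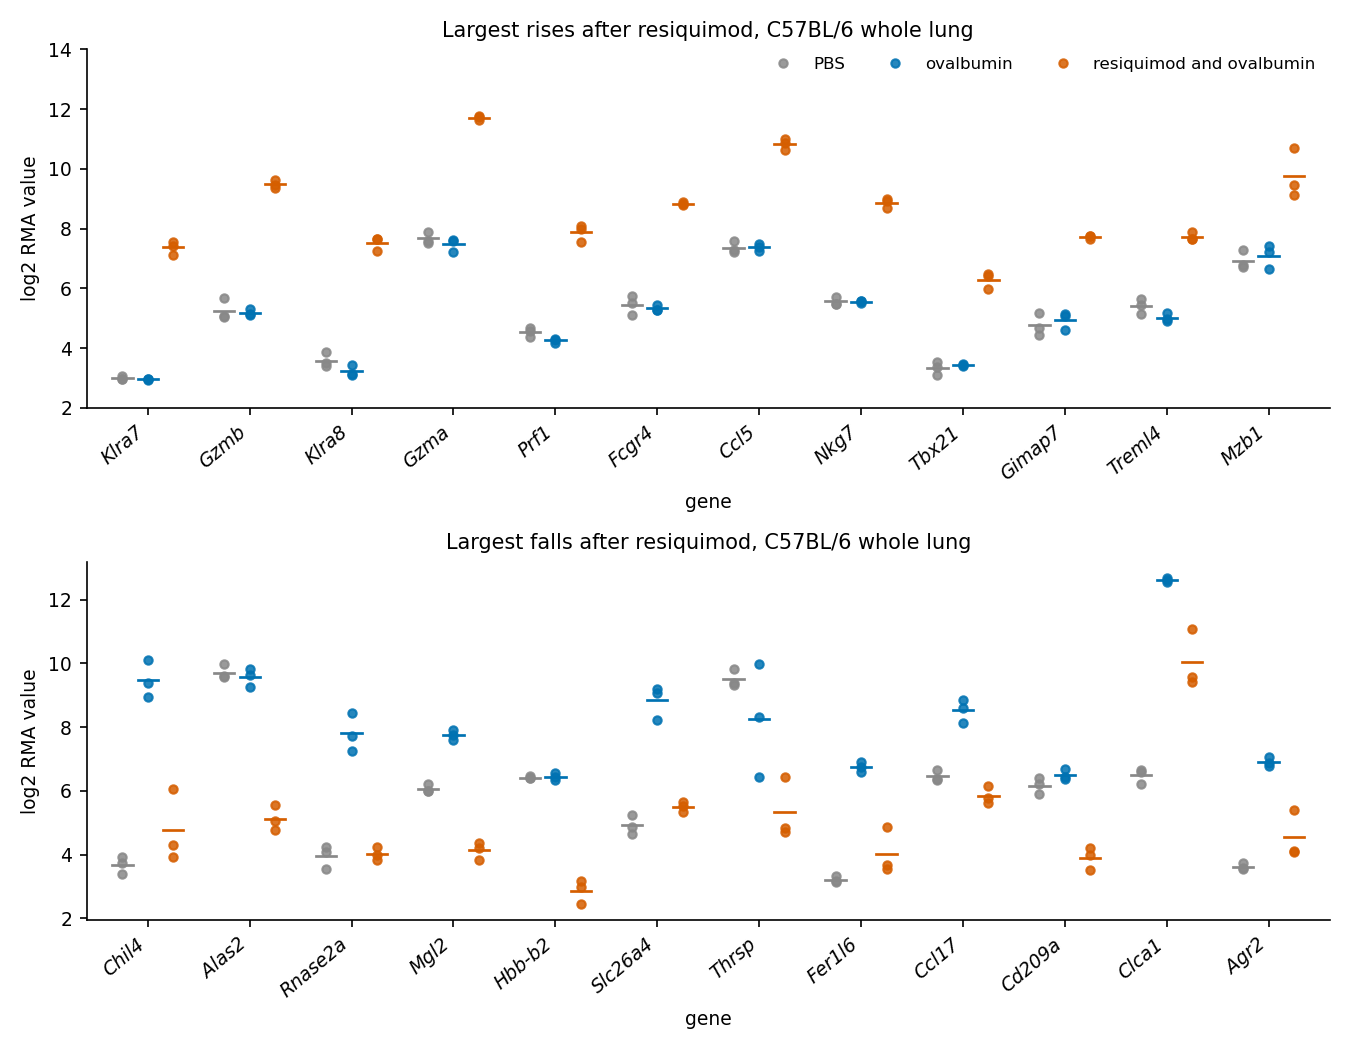
Log2 RMA value (vertical axis) of the 12 genes with the largest rise (top) and the 12 with the largest fall (bottom) in C57BL/6 lung, 1 point per array and a line at each group mean, in the PBS, ovalbumin, and resiquimod and ovalbumin groups. The genes were chosen among called genes whose 3 resiquimod arrays lie beyond the 3 ovalbumin arrays. In Gzma the resiquimod arrays lie at 11.63 to 11.76 against 7.23 to 7.63.

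Of 18 measured T cell genes, 5 were called higher, with a median of 0.16. Cd2, an adhesion receptor shared with NK cells, read 7.05, 6.96 and 6.84 against 8.12, 8.31 and 8.27 (1.28 ± 0.13, adjusted p = 1.22e-05). Thy1 rose by 1.06 ± 0.13, the receptor zeta chain Cd247 by 0.72 ± 0.10 and the cytotoxic coreceptor chain Cd8b1 by 0.71 ± 0.15 (adjusted p = 0.00569). The defining T cell chains Cd3e, at 6.02, 6.09 and 6.26 against 6.28, 6.04 and 6.13, and Cd4, at 5.34, 5.18 and 5.35 against 5.30, 5.31 and 5.17, overlapped between the groups and were not called (95% interval of the change -0.15 to 0.21 and -0.23 to 0.18). Of 13 regulatory and checkpoint genes, 2 rose and 1 fell, against 5.80% and 4.60% of all genes. The checkpoint ligand Cd274 (PD-L1) rose by 0.69 ± 0.13 and the cytokine Tgfb1 by 0.61 ± 0.12, while the interleukin-2 receptor chain Il2ra fell by 0.52 ± 0.15, and the call was lost in 5 of 6 leave-one-out fits, each without 1 array of the comparison. Foxp3, the regulatory T cell factor, had a change of -0.20 ± 0.14 and was not called.

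B cell genes rose as a group. Of 13 measured, 9 were called higher, with a median change of 1.33. The immunoglobulin-associated chains Cd79a and Cd79b rose by 1.53 ± 0.28 and 1.57 ± 0.29. CD20 (Ms4a1) read 7.18, 6.62 and 6.86 against 8.63, 9.06 and 8.92, a rise of 1.98 ± 0.35 (3.95-fold, adjusted p = 0.00173). The inhibitory coreceptor Cd72 read 5.34, 5.48 and 5.43 against 7.69, 7.53 and 7.51 (2.16 ± 0.26, adjusted p = 5.39e-05). The resiquimod arrays all lay above the ovalbumin arrays in these 4 genes, as in 14.5% of all genes. Of 10 plasma cell genes, 2 rose and 1 fell. Mzb1, a chaperone of antibody-secreting and marginal zone B cells, read 7.41, 6.64 and 7.23 against 9.45, 10.69 and 9.14 (2.67 ± 0.41, 6.35-fold), with array 2 more than 1 above the others of its group. The B cell coactivator Pou2af1 rose by 1.64 ± 0.39, a call lost without ovalbumin array 2 or resiquimod array 2, and the proteoglycan Sdc1, which the lung epithelium also carries, fell by 0.42 ± 0.07.

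Monocyte and macrophage genes mostly rose. Of 24 measured, 15 rose and 1 fell, with a median of 0.58. Fcgr4, the activating Fc receptor of non-classical monocytes, read 5.28, 5.45 and 5.29 in the ovalbumin lungs and 8.84, 8.78 and 8.89 in the resiquimod lungs (3.50 ± 0.14, 11.3-fold, adjusted p = 1.82e-10). Spn (CD43), a sialoglycoprotein of the same monocytes and of lymphocytes, read 5.59, 5.51 and 5.65 against 7.74, 7.58 and 7.57 (2.05 ± 0.15). The integrin Itgam (CD11b) read 5.61, 4.84 and 5.54 against 7.33, 7.37 and 7.32 (2.01 ± 0.28). The bacterial scavenger receptor Marco read 6.17, 5.43 and 6.08 against 7.82, 7.63 and 7.59 (1.79 ± 0.24). Nr4a1, the nuclear receptor on which patrolling monocytes depend and which antigen receptor signals also induce, rose by 1.59 ± 0.26. In all 5 genes the groups did not overlap, as in 14.5% of all genes with resiquimod above ovalbumin. The macrophage receptor Adgre1 (F4/80, 1.41 ± 0.14) and the chains of the complement factor C1q (C1qa 0.52 ± 0.14, C1qb 0.82 ± 0.14, C1qc 0.60 ± 0.13), picked after their values were seen, rose less. The elastase Mmp12 went the other way, from 6.61, 7.52 and 7.34 to 5.99, 5.96 and 6.24 (-1.09 ± 0.29), with the call lost in 5 of 6 leave-one-out fits. Outside the lists, the immune GTPase Gimap7 rose by 2.78 ± 0.24 (4.61, 5.15 and 5.09 against 7.76, 7.75 and 7.66) and the myeloid receptor Treml4 by 2.70 ± 0.25 (5.17, 4.92 and 4.98 against 7.64, 7.67 and 7.87).

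Of 18 neutrophil genes, 10 were called higher, with a median of 0.65. The granule protein Ngp read 3.98, 4.72 and 4.09 against 6.69, 6.69 and 5.93 (2.17 ± 0.31, 4.50-fold). The formyl peptide receptor Fpr2 rose by 1.63 ± 0.19 and the collagenase Mmp8 by 1.54 ± 0.30. S100a9, a subunit of calprotectin, read 9.51, 9.67 and 8.82 against 10.92, 10.77 and 10.45; its rise of 1.38 ± 0.40 was lost in all 6 leave-one-out fits. The count fell to 4 without ovalbumin array 1, to 5 without ovalbumin array 3 or resiquimod array 1 and to 6 without resiquimod array 2. It was 4 without the 2 arrays that held squamous transcripts and 2 without all such arrays of the study.

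Dendritic cell genes split, with 3 of 16 higher and 6 lower. Cd209a, a lectin of monocyte-derived dendritic cells, read 6.37, 6.45 and 6.68 against 4.22, 3.53 and 3.98 (-2.59 ± 0.21, 6.02-fold lower, adjusted p = 1.08e-06). Batf3, a factor of cross-presenting dendritic cells, fell from 6.28, 6.69 and 6.45 to 5.25, 5.33 and 5.39 (-1.15 ± 0.11). The chemokines Ccl17 and Ccl22, described with the macrophage genes, were the others of the 4 largest falls. The 3 higher genes, picked after their values were seen, were Irf8 (0.52 ± 0.13), Fscn1 (0.70 ± 0.12) and Clec4n (0.50 ± 0.12), of which 1 was called without ovalbumin array 2.

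Of 31 measured type I interferon-stimulated genes, 4 rose and 1 fell, with a median of 0.07, against 5.80% and 4.60% of all genes. Irf7, the factor that amplifies interferon production, read 6.67, 6.63 and 6.90 against 7.94, 7.68 and 7.87 (1.10 ± 0.12, adjusted p = 1.69e-05). The nucleic acid sensor Zbp1 rose by 0.97 ± 0.20 and Ifi204 by 0.54 ± 0.13, the latter call lost in 3 of 6 leave-one-out fits. Rsad2 (viperin), an antiviral enzyme, fell from 8.15, 7.61 and 8.39 to 7.10, 7.29 and 7.49 (-0.76 ± 0.18, adjusted p = 0.0153), with the call lost in 3 of 6 leave-one-out fits. Ifit1 was not called, at 7.41, 7.396 and 7.90 against 7.42, 6.95 and 7.21.

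Genes induced by interferon gamma had 8 of 18 higher and 1 lower, with a median of 0.37. The T cell attractant Cxcl9 read 6.13, 6.32 and 6.78 against 7.91, 7.72 and 8.16 (1.52 ± 0.17, adjusted p = 2.92e-05). The tryptophan-degrading enzyme Ido1 read 3.94, 3.67 and 3.71 against 5.13, 5.14 and 5.02 (1.33 ± 0.09), and the high-affinity Fc receptor Fcgr1 rose by 1.22 ± 0.12. The guanylate-binding proteins Gbp2, Gbp3, Gbp6 and Gbp7, picked after their values were seen, rose by 0.47 to 0.68, and the inhibitor of cytokine signalling Socs1 fell by 0.48 ± 0.12. Cxcl10, an interferon-induced chemokine related to Cxcl9, read 6.29, 6.26 and 6.97 against 6.39, 6.52 and 7.07 and was not called (0.15 ± 0.27, 95% interval -0.43 to 0.73). The count of rises was 5 without ovalbumin array 1 or 2 or resiquimod array 1 or 3, and 4 without the 2 arrays that held squamous transcripts.

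Interferon response elements hold the letters GAAA followed by GAAA, with any 2 bases between. On either strand within 250 bases before the start, they stood in 3.46% of all 27025 genes. They stood in 8 of the 12 interferon gamma-induced genes with a RefSeq entry (66.7%) and in 8 of the 20 type I genes (40%). Of the genes with an entry called in either direction, 4 of 7 interferon gamma-induced and 2 of 3 type I genes held them. Gbp2 (chr3:142620413-142620662, plus strand), which rose by 0.57 ± 0.12, and Rsad2 (chr12:26456453-26456702, minus strand), which fell, are shown because both hold the letters, in capitals and read here on the other strand, and moved in opposite directions.
Gbp2: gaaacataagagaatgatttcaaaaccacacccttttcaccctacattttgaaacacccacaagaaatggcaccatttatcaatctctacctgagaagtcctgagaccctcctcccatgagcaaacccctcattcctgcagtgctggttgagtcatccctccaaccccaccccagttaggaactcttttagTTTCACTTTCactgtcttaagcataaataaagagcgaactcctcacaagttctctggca
Rsad2: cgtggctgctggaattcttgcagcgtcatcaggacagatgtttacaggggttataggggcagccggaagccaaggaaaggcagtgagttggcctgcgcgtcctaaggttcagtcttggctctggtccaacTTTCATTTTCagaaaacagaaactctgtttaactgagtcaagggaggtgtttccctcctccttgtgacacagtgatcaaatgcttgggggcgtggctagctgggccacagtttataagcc

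The type 1 axis, from interleukin-12 to interferon gamma, had 6 of 16 genes higher. Besides Tbx21, Stat4, which carries the interleukin-12 signal, read 4.70, 4.74 and 5.19 against 6.42, 6.25 and 6.39 (1.48 ± 0.14). The chemokine receptor Cxcr3 rose by 1.37 ± 0.20 and Ebi3, a subunit of interleukin-27 and interleukin-35, by 1.76 ± 0.13. Interferon gamma itself (Ifng) read 2.94, 2.89 and 3.05 in the ovalbumin lungs, among the weakest signals, and 3.76, 3.26 and 4.62 in the resiquimod lungs. All 3 resiquimod arrays were higher, but they spread over more than 1, and the change of 0.92 ± 0.28 missed the threshold (adjusted p = 0.054, 95% interval 0.33 to 1.51). It was called in 5 of the 27 alternatives tried, among them the fit without resiquimod array 2. The interleukin-12 subunits Il12a (0.00 ± 0.15) and Il12b (0.03 ± 0.08) were not called.

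Tlr7, the receptor that resiquimod binds, read 5.18, 4.95 and 4.96 against 6.12, 6.36 and 5.85, without overlap. Its rise was 1.08 ± 0.10, or 2.12-fold (adjusted p = 5.72e-06). Of 24 measured genes of the Toll-like receptor pathway, 6 rose, against 5.80% of all genes. The count was 5 without ovalbumin array 2 and 4 without any other single array of the comparison. By the medians over all probe sets of a gene it was 3. Tlr13, a sensor of bacterial ribosomal RNA, rose by 1.41 ± 0.12, and Tlr1, a sensor of lipopeptides, by 0.997 ± 0.19. The negative regulator Irak3 rose by 0.64 ± 0.19, with the call lost in all 6 leave-one-out fits. The other 2, picked after their values were seen, were the chaperone Unc93b1 that delivers Tlr7 to endosomes (0.47 ± 0.08) and the factor Irf5 (0.58 ± 0.16). Tlr8 (0.30 ± 0.20), Tlr9 (-0.04 ± 0.09) and the adaptor Myd88 (0.11 ± 0.09) were not called, nor were the pathway's products Tnf (0.07 ± 0.24) and Il6 (-0.27 ± 0.21).

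Most class I antigen presentation genes rose. Of 11 measured genes, 10 rose, with a median of 0.54. The class I heavy chain H2-K1 read 11.31, 11.30 and 11.44 against 12.05, 12.09 and 12.08 (0.73 ± 0.07, adjusted p = 7.81e-06), the peptide transporter Tap1 rose by 1.10 ± 0.18, and the immunoproteasome subunits Psmb8 and Psmb9 by 0.95 ± 0.11 and 0.96 ± 0.10. The count was 7 without the 2 arrays that held squamous transcripts. H2-K1 is measured by a probe set that can bind other class I genes. Of 11 class II presentation genes 3 rose, while the list's median was -0.03. H2-Oa (0.97 ± 0.19) and H2-Ob (0.92 ± 0.21), which form the B cell regulator of peptide loading, and the protease Ctss (0.30 ± 0.08, a call lost in 5 of the 6 fits) were the 3. Of 13 complement and acute phase genes 6 rose. The acute phase protein Saa3 read 7.31, 7.59 and 7.22 against 8.46, 9.59 and 8.97 (1.63 ± 0.22), the anaphylatoxin receptor C5ar1 rose by 1.40 ± 0.16, factor B (Cfb) by 0.83 ± 0.09 and the siderophore-binding Lcn2 by 0.64 ± 0.15, a call lost without ovalbumin array 1 or resiquimod array 1. The count was 3 without the 2 arrays that held squamous transcripts.

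Genes of dividing cells rose in a narrow range of sizes. Of 36 measured cell cycle genes, 31 rose, with a median of 0.71, and the largest rise was 1.21. The mitotic inhibitor of apoptosis Birc5 read 5.81, 6.13 and 6.22 against 7.24, 7.25 and 7.31 (1.21 ± 0.20, 2.32-fold, adjusted p = 0.00101). Cyclin B2 (Ccnb2) read 5.93, 6.29 and 6.23 against 7.14, 7.19 and 7.33 (1.07 ± 0.16), cyclin A2 (Ccna2) rose by 1.06 ± 0.20, and the proliferation antigen Mki67 by 0.995 ± 0.13 (7.37, 7.604 and 7.56 against 8.54, 8.54 and 8.44). In 34 of the 36 genes the 3 resiquimod arrays lay above the 3 ovalbumin arrays, as in 14.5% of all genes. The count of called genes was 19 without the 2 arrays that held squamous transcripts. It was 22 when a gene was called by the medians of change and adjusted p over all its probe sets.

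Promoters of cell cycle genes are known for CCAAT boxes, bound by NF-Y, and for the letters TTTGAA (the cell cycle genes homology region) in mitotic genes or TTTGGCGC (an E2F site) in genes of DNA replication. On either strand, CCAAT stood in 24 of the 29 list members with a RefSeq entry (82.8%) and in 37.5% of all genes. TTTGAA stood in 10 (34.5%, against 18.3%) and TTTGGCGC in 2 (6.90%, against 0.485%). Ccnb2 (chr9:70421555-70421804, minus strand) is shown for the mitotic and Mcm5 (chr8:75109259-75109508, plus strand), a replicative helicase subunit that rose by 0.72 ± 0.12, for the replicative kind. Capitals mark CCAAT in both, TTTGAA in Ccnb2 and TTTGGCGC, read as GCGCCAAA on the other strand, in Mcm5. None of the marked runs overlap.
Ccnb2: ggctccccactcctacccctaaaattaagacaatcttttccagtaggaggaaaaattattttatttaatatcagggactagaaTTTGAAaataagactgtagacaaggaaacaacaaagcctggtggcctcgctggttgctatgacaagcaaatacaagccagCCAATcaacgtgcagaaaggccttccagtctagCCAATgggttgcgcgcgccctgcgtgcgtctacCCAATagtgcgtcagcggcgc
Mcm5: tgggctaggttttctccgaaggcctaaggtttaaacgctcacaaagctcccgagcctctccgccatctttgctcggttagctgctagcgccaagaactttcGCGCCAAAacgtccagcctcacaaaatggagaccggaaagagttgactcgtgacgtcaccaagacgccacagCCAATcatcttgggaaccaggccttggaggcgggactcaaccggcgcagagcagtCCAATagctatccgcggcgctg

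**Figure D3:**
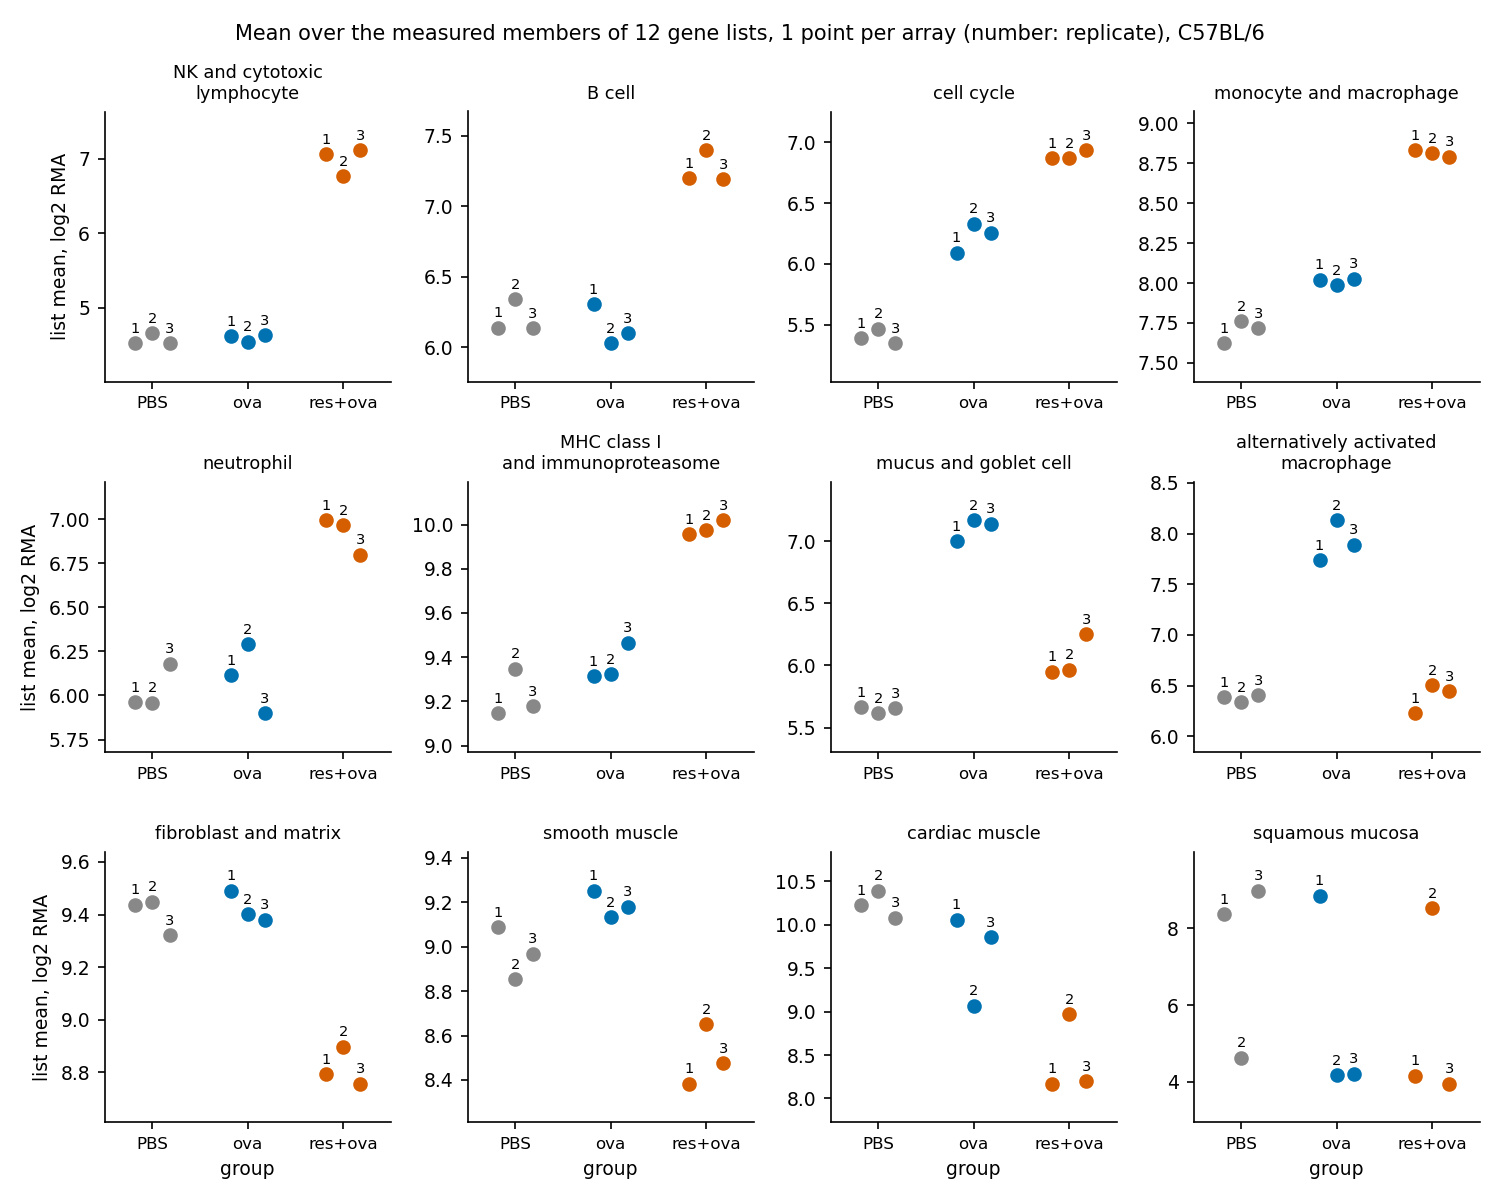
Mean log2 RMA value over the measured members of 12 gene lists (vertical axis, its own scale in each panel), 1 point per C57BL/6 array with its replicate number, by group. NK and cytotoxic genes lie at 4.55 to 4.64 in the ovalbumin arrays and 6.77 to 7.12 in the resiquimod arrays, and the squamous panel shows ovalbumin array 1 and resiquimod array 2 far above the others of their groups.

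Mucus genes fell, and fell unevenly between mice. Of 20 measured mucus and goblet cell genes, 13 were called lower and none higher by limma (1 at an unadjusted p under 0.05), with a median of -0.78. Their mean log2 value was 5.66, 5.61 and 5.66 in the PBS lungs, 7.003, 7.17 and 7.14 with ovalbumin and 5.95, 5.97 and 6.25 with resiquimod, so the resiquimod lungs stayed above buffer. Slc26a4 (pendrin), an anion exchanger of mucous cells, read 8.22, 9.20 and 9.09 against 5.33, 5.53 and 5.64 (-3.34 ± 0.21, 10.1-fold lower, adjusted p = 2.78e-08). Clca1, a secreted regulator of goblet cell mucus, read 12.56, 12.62 and 12.68 against 9.59, 9.41 and 11.09 (-2.59 ± 0.48, 6.02-fold lower, adjusted p = 0.00237). Agr2, a disulfide isomerase that folds mucins, read 6.77, 7.06 and 6.87 against 4.12, 4.09 and 5.404 (-2.37 ± 0.29). In Clca1 and Agr2 the third resiquimod lung kept a level more than 1 above the other two, though still below all 3 ovalbumin lungs. Fcgbp, a mucus-associated protein, read 9.41, 9.75 and 9.63 against 7.08, 7.03 and 7.81 (-2.29 ± 0.17). The gel-forming mucin Muc5ac read 7.48, 7.75 and 7.58 against 5.46, 5.33 and 6.199 (-1.94 ± 0.24, 3.83-fold lower, adjusted p = 6.71e-05). Fer1l6, a ferlin outside the lists, also read highest in the third of the resiquimod lungs (6.73, 6.92 and 6.598 against 3.67, 3.54 and 4.85, -2.73 ± 0.27). Muc5b (-0.998 ± 0.18), the trefoil peptide Tff2 (-1.34 ± 0.29) and the goblet cell factor Spdef (-0.66 ± 0.12), picked after their values were seen, fell less.

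The list of alternatively activated macrophage genes held the largest single fall, and which cells carried it was not tested. Of 18 measured, 10 were called lower and none higher (none at an unadjusted p under 0.05 in limma), with a median of -1.10. Chil4 (Ym2), a chitinase-like protein, read 8.95, 10.09 and 9.38 in the ovalbumin lungs and 3.92, 4.30 and 6.06 in the resiquimod lungs (-4.72 ± 0.40, 26.3-fold lower, adjusted p = 1.55e-06). Resiquimod lungs 1 and 2 lay near the weakest signals, where a further fall would be hard to see, and lung 3 was higher. Rnase2a, an eosinophil-associated ribonuclease also made by macrophages, read 7.25, 8.45 and 7.72 against 4.22, 4.00 and 3.82 (-3.79 ± 0.38, 13.9-fold lower). The galactose lectin Mgl2 read 7.61, 7.91 and 7.75 against 3.84, 4.20 and 4.38 (-3.62 ± 0.15, 12.3-fold lower, adjusted p = 2.98e-10). Retnla (Fizz1, -0.98 ± 0.13), the lectins Cd209e (-2.25 ± 0.21) and Clec10a (-1.45 ± 0.22) and the factor Egr2 (-0.69 ± 0.13), picked after their values were seen, fell too. Arginase 1 (Arg1) read 7.46, 7.94 and 7.44 against 3.97, 6.57 and 5.21, without overlap, but its wide spread left it uncalled (-2.36 ± 0.74, adjusted p = 0.0625). Chil3 (Ym1), the close relative of Chil4, read 12.28, 12.53 and 12.48 against 12.24, 12.03 and 12.19 and was not called.

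The 3 chemokines called in the same list fell without overlap between groups, as 16.1% of all genes did in this direction. Ccl17, which attracts Th2 cells through Ccr4, read 8.14, 8.86 and 8.61 against 5.76, 5.62 and 6.14 (-2.69 ± 0.23, 6.47-fold lower, adjusted p = 1.32e-06). Ccl24 (eotaxin-2) read 6.32, 6.91 and 6.57 against 4.54, 4.57 and 4.44 (-2.09 ± 0.15), and Ccl22 read 6.16, 6.58 and 6.41 against 5.26, 5.09 and 5.12 (-1.23 ± 0.10). Stat6, which carries the interleukin-4 and interleukin-13 signal, binds TTC and GAA with any 4 bases between. These letters stood in 4 of the 14 list members with a RefSeq entry (28.6%), in none of 11 mucus list members, and in 6.76% of all genes. The window of Ccl17 (chr8:94810203-94810452, plus strand) is shown as a called member that holds them, in capitals.
Ccl17: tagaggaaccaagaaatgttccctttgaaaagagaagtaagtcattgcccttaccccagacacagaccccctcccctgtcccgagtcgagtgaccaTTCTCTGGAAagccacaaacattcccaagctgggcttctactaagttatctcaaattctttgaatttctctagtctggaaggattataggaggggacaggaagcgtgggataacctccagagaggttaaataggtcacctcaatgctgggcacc

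Of the 23 inflammatory chemokines measured, 7 fell and 4 rose. The 4 largest changes were the rise of Ccl5 and the falls of Ccl17, Ccl11 and Ccl24. Ccl11 (eotaxin-1), the main eosinophil attractant of the airways, read 6.79, 7.59 and 7.08 against 4.73, 5.10 and 5.09 (-2.18 ± 0.22, 4.53-fold lower, adjusted p = 9.16e-06). The other rises, picked after their values were seen, were Ccl3 (1.75 ± 0.31), Ccl4 (1.27 ± 0.24) and Cxcl9, and Ccl8 (-1.34 ± 0.28) fell beside the eotaxins.

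The type 2 cytokines themselves were near the weakest signals and were not called. Il13 read 3.64, 3.91 and 3.83 against 3.44, 3.70 and 3.63 (-0.20 ± 0.11, adjusted p = 0.32, unadjusted 95% interval -0.44 to 0.03). Il4 read 3.07, 3.38 and 3.23 against 3.20, 2.91 and 3.10 (-0.15 ± 0.11, adjusted p = 0.498, interval -0.39 to 0.08), and Il5 read 3.32, 3.49 and 3.55 against 3.17, 3.14 and 3.40 (-0.22 ± 0.09, adjusted p = 0.152, interval -0.40 to -0.04). The groups overlapped in each of these. Of 19 measured type 2 genes 2 fell and 1 rose, against 4.60% and 5.80% of all genes. The epithelial alarmin Il33 read 9.76, 10.33 and 10.12 against 8.74, 9.02 and 8.85 (-1.20 ± 0.18, 2.30-fold lower, adjusted p = 0.000329). The eotaxin receptor Ccr3 fell by 0.38 ± 0.10, with the call lost in 4 of 6 leave-one-out fits, while the thymic stromal lymphopoietin receptor Crlf2 rose by 0.48 ± 0.10.

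Of 10 measured eosinophil genes 3 fell, namely Ccl11, the lipoxygenase Alox15 (-1.53 ± 0.42, a call lost in 5 of the 6 fits) and Ccr3, and 1 rose. The riser was Siglecf, a lectin of eosinophils and alveolar macrophages, at 5.91, 5.92 and 5.61 against 6.57, 6.64 and 6.35 (0.71 ± 0.20, adjusted p = 0.0377), with the call lost in all 6 leave-one-out fits. The granule proteins Prg2 (2.91, 3.70 and 3.34 against 3.39, 3.29 and 2.91) and Epx (3.06, 3.18 and 3.03 against 3.16, 3.20 and 3.06) lay near the weakest signals in both groups and were not called. Of 13 mast cell and basophil genes 1 fell, the histamine-forming enzyme Hdc (-0.50 ± 0.08), near the 4.60% of all genes that fell.

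Connective tissue genes fell with little spread between mice. Of 18 measured fibroblast and matrix genes 12 fell, with a median of -0.66. The fibrillar collagen chain Col3a1 read 12.06, 12.14 and 12.10 against 10.64, 10.83 and 10.68 (-1.38 ± 0.15, 2.60-fold lower, adjusted p = 1.88e-05). Col1a1 read 9.32, 9.41 and 9.31 against 8.16, 8.11 and 8.11 (-1.22 ± 0.15), Col5a2 fell by 0.87 ± 0.11 and elastin (Eln) fell by 0.87 ± 0.15. Of 16 remodelling genes 8 fell. Timp1, an inhibitor of matrix proteases, read 8.54, 9.17 and 8.81 against 7.17, 7.34 and 7.54 (-1.49 ± 0.15, 2.81-fold lower), tenascin C (Tnc) fell by 1.01 ± 0.19 and the matricellular factor Ccn2 fell by 0.71 ± 0.17, a call lost in 3 of the 6 fits. This count was 4 without ovalbumin array 2 or 3, and 3 without resiquimod array 3. Of 14 smooth muscle genes 10 fell, with a median of -0.69, and 7 fell by the medians over all probe sets of a gene. Alpha smooth muscle actin (Acta2) read 12.06, 12.28 and 12.06 against 11.05, 11.26 and 11.29 (-0.93 ± 0.09, adjusted p = 5.36e-06), gamma enteric actin (Actg2) fell by 1.18 ± 0.13, and the actin-binding Synpo2 (-0.91 ± 0.11) and tropomyosin Tpm2 (-0.88 ± 0.11) fell too.

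Cardiac muscle genes, which the walls of pulmonary veins express in mice and attached heart tissue would also supply, were lower as well. Their mean over the 8 measured genes was 10.06, 9.07 and 9.85 in the ovalbumin arrays and 8.17, 8.97 and 8.20 in the resiquimod arrays, a difference of -1.22 without overlap (exact two-sided permutation p = 0.1, the smallest possible). The atrial light chain Myl7 read 11.32, 10.56 and 11.24 against 9.30, 9.99 and 9.45 (-1.46 ± 0.21), Actc1 (-1.29 ± 0.17), Myl4 (-1.43 ± 0.24) and Tnni3 (-1.14 ± 0.23) fell, and 6 of 8 were called. Their part in the falls of matrix and smooth muscle genes was not tested. Without the 2 arrays that held squamous transcripts the difference in the cardiac mean was -1.28 (n = 2 per group), while 4 cardiac genes were called lower. Of 4 adipose genes 1 fell, Retn (8.19, 6.49 and 7.595 against 5.33, 6.80 and 5.63, with overlap), a call lost in 4 of the 6 fits. Thrsp, a lipogenic protein of fat and liver outside the lists, read 9.995, 6.44 and 8.32 against 4.70, 6.44 and 4.84 (-2.92 ± 0.70, adjusted p = 0.0149). The array 2 values of the groups all but touch, and its call was lost in 3 of the 6 fits.

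All 13 measured alveolar epithelial genes had changes below 0, with a median of -0.14, and 3 fell, with the tight junction protein Cldn18 at -0.52 ± 0.08, the type I cell receptor Ager at -0.22 ± 0.07 (lost in 5 of the 6 fits) and the phosphate transporter Slc34a2 at -0.29 ± 0.08 (lost in 4). Of 12 club cell genes 8 had changes below 0 and 2 fell, the secretoglobin Scgb3a1 (11.57, 11.56 and 11.68 against 11.10, 10.98 and 10.93, -0.60 ± 0.08) and the antibacterial lectin Reg3g (10.51, 10.19 and 10.46 against 9.50, 9.26 and 9.49, -0.97 ± 0.13). Of 12 ciliated cell genes 4 fell, by 0.33 to 0.57 in size, and all 4 calls were lost without ovalbumin array 3. Of 17 endothelial genes 4 rose and 2 fell. The capillary sialomucin Emcn read 8.28, 8.16 and 8.36 against 8.96, 8.84 and 9.17 (0.73 ± 0.10), Pecam1 (CD31) rose by 0.52 ± 0.11 and the angiopoietin receptor Tek by 0.38 ± 0.10, while the fenestral diaphragm protein Plvap fell by 0.38 ± 0.10. The calls of Tek and Plvap were lost in 4 and 3 of the 6 fits.

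Red cell transcripts were lower in all 3 resiquimod lungs. Alas2, which begins haem synthesis in erythroid cells and marks reticulocytes in blood, read 9.63, 9.27 and 9.83 against 4.76, 5.56 and 5.07 (-4.45 ± 0.24, 21.9-fold lower, adjusted p = 6.42e-09). The beta globin gene Hbb-b2 read 6.57, 6.35 and 6.42 against 2.45, 2.99 and 3.18 (-3.58 ± 0.20), the resiquimod values being among the weakest signals, on a probe set that near-identical globin genes can share. Bpgm, which makes the red cell regulator of oxygen release, read 8.65, 8.27 and 8.63 against 6.68, 6.68 and 6.76 (-1.81 ± 0.15), and the anion exchanger Slc4a1 fell by 1.17 ± 0.27, a call lost without ovalbumin array 1 or resiquimod array 2. Of 6 measured genes of the erythroid list, which does not hold Hbb-b2, 3 fell. The other 3, Hba-a1, Epb42 and Rhd, read 2.79 to 4.27 in both groups, near the weakest signals. How much blood remained in each lung is not given, and its part in these falls was not tested. GATA factors, which direct erythroid genes, bind AGATAA. These letters stood in 3 of the 5 erythroid genes with a RefSeq entry and in 11.4% of all genes. Of the 2 called genes with an entry, 1 held them. The window of Alas2 (chrX:150547167-150547416, plus strand) is shown with its match on the other strand in capitals.
Alas2: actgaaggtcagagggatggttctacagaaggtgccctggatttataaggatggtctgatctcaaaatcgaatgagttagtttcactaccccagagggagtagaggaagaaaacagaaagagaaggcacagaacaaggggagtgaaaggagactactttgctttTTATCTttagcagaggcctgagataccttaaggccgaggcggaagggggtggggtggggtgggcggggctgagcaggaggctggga

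**Figure D4:**
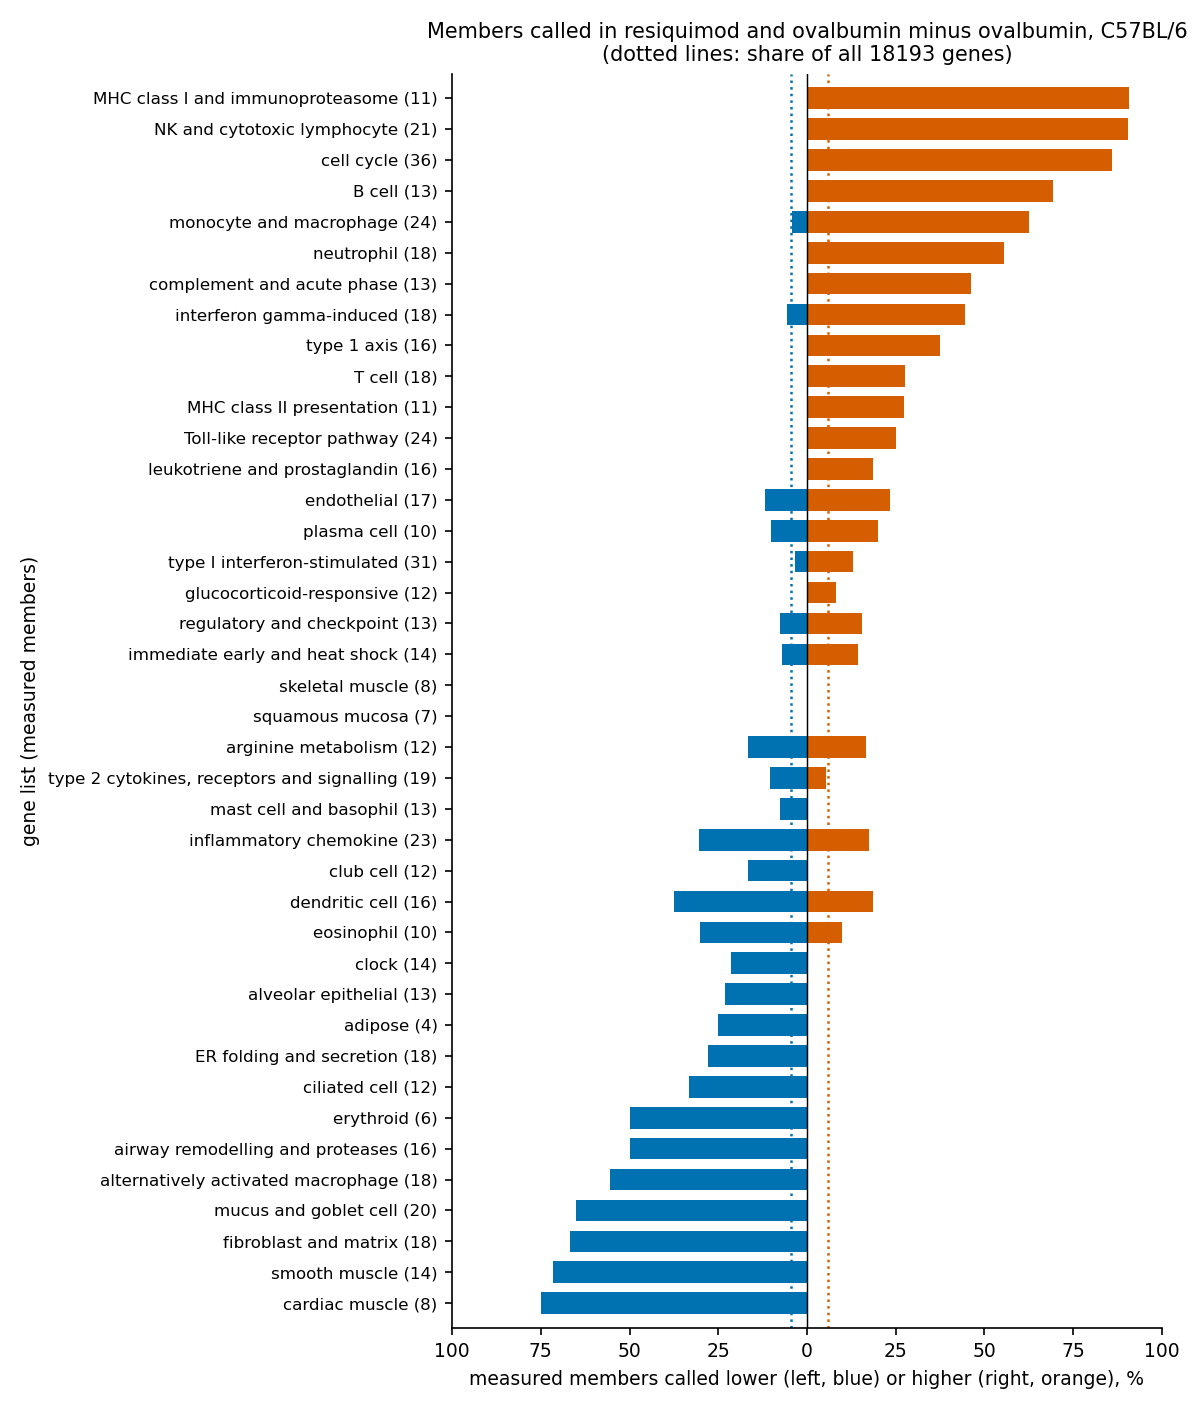
Share of the measured members of 40 gene lists called higher (right, orange) or lower (left, blue) in resiquimod and ovalbumin minus ovalbumin, C57BL/6, in percent, with the number measured beside each name. Dotted lines mark the 5.80% and 4.60% of all genes called higher and lower, and the NK, class I and cell cycle lists lie far to the right of them.

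The other lists held scattered calls, to be read beside the 5.80% of all genes called higher and the 4.60% called lower. Of 16 leukotriene and prostaglandin genes 3 rose, while the list's median was -0.01. They were Pla2g7, the hydrolase of platelet-activating factor (6.33, 6.35 and 6.15 against 7.77, 7.67 and 7.74, 1.45 ± 0.13), the 5-lipoxygenase partner Alox5ap (0.71 ± 0.13) and the leukotriene A4 hydrolase Lta4h (0.29 ± 0.07, lost in 3 of the 6 fits). Of 12 arginine metabolism genes 2 rose and 2 fell, with the nitric oxide synthase Nos3 (0.69 ± 0.12) and the dimethylarginine hydrolase Ddah1 (0.77 ± 0.13) higher and the arginine transporter Slc7a2 (-0.80 ± 0.11) and Oat (-0.30 ± 0.07) lower. Of 18 endoplasmic reticulum folding genes 5 fell by small amounts, among them the chaperones Hspa5 (-0.35 ± 0.08) and Calr (-0.33 ± 0.09) and the isomerase Pdia6 (-0.38 ± 0.08). The call of Dnajc3 (-0.22 ± 0.06) was lost in 5 of the 6 fits, and that of Calr in 4. Of 12 glucocorticoid-responsive genes 1 rose, Lcn2 (lost in 2 of the 6 fits), which is near the share of all genes. Of 14 clock genes 3 fell, the repressors Nr1d1 (8.04, 7.89 and 7.91 against 7.42, 7.30 and 7.35, -0.59 ± 0.12) and Nr1d2 (-0.41 ± 0.09) and the output factor Dbp (-0.63 ± 0.16, lost in 5 of the 6 fits). Of 14 immediate early and heat shock genes 2 rose, Nr4a1 and Ier2 (0.34 ± 0.10, lost in 5 of the 6 fits), and 1 fell, Hspb1 (-0.55 ± 0.13, lost in 4).

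The sensitized lungs that inhaled buffer place these levels. Against the C57BL/6 PBS group, 290 genes (1.59%) were called in the ovalbumin group, 262 higher (1.44%) and 28 lower (0.154%), or 1.06% of probe sets. In the resiquimod group 3052 (16.8%) were called, 1749 higher (9.61%) and 1303 lower (7.16%), or 12.4% of probe sets. These comparisons share arrays with each other and with the main one, so values are set side by side and no overlap is drawn. The falls ended at different heights. Ccl11 read 4.78, 4.79 and 4.89 in the PBS lungs, and the resiquimod lungs, at -2.18 ± 0.22 from ovalbumin, stood at 0.16 ± 0.22 from PBS. Rnase2a (0.05 ± 0.38) and Ccl24 (-0.20 ± 0.15) also ended near PBS and were not called against it. Clca1 read 6.65, 6.22 and 6.59 in the PBS lungs, so that the resiquimod lungs were still 3.55 ± 0.48 above them. Timp1 (1.07 ± 0.15), Muc5ac (0.95 ± 0.24) and Agr2 (0.92 ± 0.29) were called above PBS as well.

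Other genes fell below the buffer group. Mgl2 read 6.21, 5.99 and 5.99 in the PBS lungs and the change from PBS was -1.92 ± 0.15 with resiquimod and 1.69 ± 0.15 with ovalbumin alone. Cd209a read 6.39, 5.89 and 6.204 with PBS, and the change was -2.26 ± 0.21 with resiquimod and 0.34 ± 0.21 with ovalbumin alone. Alas2 (-4.59 ± 0.24), Hbb-b2 (-3.55 ± 0.20), Bpgm (-1.83 ± 0.15) and Col3a1 (-1.12 ± 0.15) were called below PBS after resiquimod, and none of these 4 was called for ovalbumin alone. Among the rises, Gzma read 7.53, 7.90 and 7.58 with PBS, so ovalbumin alone left it near that level (-0.19 ± 0.13) and resiquimod raised it by 4.03 ± 0.13.

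The cell cycle genes rose in both steps. Mki67 read 5.97, 6.08 and 5.88 with PBS, and rose by 1.53 ± 0.13 with ovalbumin and 2.53 ± 0.13 with resiquimod and ovalbumin. Of 36 cell cycle genes 26 were called higher for ovalbumin alone and 34 for resiquimod and ovalbumin. Cxcl9 read 3.90, 4.36 and 3.91 with PBS, and rose by 2.35 ± 0.17 and 3.87 ± 0.17. Saa3 read 5.47, 5.39 and 5.51 with PBS and rose by 1.91 ± 0.22 and 3.54 ± 0.22. The PBS group also stood apart in a gene of the strain background. Nnt, a mitochondrial transhydrogenase lost by deletion in one C57BL/6 substrain, read 7.04, 7.27 and 6.90 in the PBS lungs, 8.45, 8.35 and 8.40 with ovalbumin and 8.35, 8.41 and 8.27 with resiquimod, which gives 1.33 ± 0.09 and 1.28 ± 0.09 against PBS and -0.06 ± 0.09 (not called) between the other two. Its part in the differences from PBS was not tested, and it was picked after its values were seen.

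In A/J mice, treated in parallel, the same comparison called 1777 genes (9.77%), 796 higher (4.38%) and 981 lower (5.39%), or 7.12% of probe sets. No array serves both strains, although the fit shares 1 estimate of spread. Of the genes called higher, 343 were called in both strains, which is 32.5% of the C57BL/6 and 43.1% of the A/J list. Of those called lower, 392 were shared, which is 46.9% and 40%. Genes called higher in C57BL/6 had medians of 0.54 and, in A/J, 0.22, and those called lower had -0.42 and -0.28; since the C57BL/6 values chose the genes, this gap is not a test. Several of the largest changes appeared in both strains. Gzma changed by 4.22 ± 0.13 in C57BL/6 and 4.59 ± 0.13 in A/J, with a difference of -0.37 ± 0.19 that was not called. Chil4 changed by -4.72 ± 0.40 and -5.39 ± 0.40 (difference 0.67 ± 0.57, adjusted p = 0.674), and Muc5ac by -1.94 ± 0.24 and -1.96 ± 0.24 (difference 0.03 ± 0.34, adjusted p = 0.985).

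The strain difference itself, C57BL/6 minus A/J in the effect of resiquimod, was called in 225 genes (1.24%), 160 in favour of C57BL/6 (0.879%) and 65 in favour of A/J (0.357%). Of these 108 were called within C57BL/6 but not A/J, 79 within A/J but not C57BL/6, 37 within both and 1 within neither. Over probe sets the count was 378 (0.839%) and depended on the arrays used. It was 87 in a fit to the 12 arrays of these 4 groups. With 1 array left out it lay between 138 (without C57BL/6 resiquimod 3) and 636 (without A/J resiquimod 1). Without all arrays that held squamous transcripts, the A/J ovalbumin group kept only its array 2, so no count is given.

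Klra7 and Klra8 had the widest strain difference, 4.30 ± 0.14 and 4.20 ± 0.19. In A/J their probe sets read 2.34, 2.68 and 2.60 and 2.61, 2.55 and 2.29 with ovalbumin and 2.58, 2.64 and 2.74 and 2.63, 2.45 and 2.66 with resiquimod, among the weakest signals in both groups. Whether these probes match the A/J copies of the Ly49 genes was not tested. Klre1 rose in both strains, by 0.80 ± 0.14 in A/J, with a difference of 1.70 ± 0.19. Slc13a3, a dicarboxylate transporter, read 4.84, 4.58 and 4.25 against 6.601, 6.46 and 6.44 in C57BL/6 and 4.20, 4.42 and 4.19 against 4.51, 4.59 and 4.40 in A/J (difference 1.71 ± 0.16). Disp2, a relative of the protein that releases hedgehog ligands, rose in C57BL/6 from 5.67, 5.86 and 6.03 to 7.38, 7.12 and 7.37 (difference 1.64 ± 0.24).

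The goblet cell lectin Itln1 and the guanylin gene Guca2a reached the positive side through a fall that was called in A/J and not in C57BL/6. Itln1 fell from 9.65, 9.29 and 9.52 to 6.72, 6.08 and 7.09 in A/J, while C57BL/6 lungs read 4.55, 4.36 and 4.84 and 4.25, 4.31 and 3.87 (difference 2.41 ± 0.29). Guca2a read 6.12, 6.22 and 6.27 against 4.39, 4.15 and 3.96 in A/J and 4.09, 4.17 and 3.91 against 4.06, 4.14 and 4.04 in C57BL/6. On the negative side, the collagen cross-linking enzyme Lox rose from 8.69, 8.87 and 8.95 to 10.31, 10.44 and 10.91 in A/J and read 8.63, 9.00 and 8.72 against 8.75, 8.42 and 8.60 in C57BL/6 (difference -1.91 ± 0.22). The glycosyltransferase Galnt15 (-1.79 ± 0.18), the factor Klf15 (-1.31 ± 0.26), the cell cycle regulator Rgcc (-1.26 ± 0.26), the platelet tubulin Tubb1 (-1.22 ± 0.22) and the protease inhibitor A2ml1 (-2.06 ± 0.30) were called higher in A/J and not called in C57BL/6. A2ml1 lay at the threshold there (-0.72 ± 0.21, adjusted p = 0.0501) and was called lower in C57BL/6 in 9 of 28 alternatives, as Klf15 (-0.54 ± 0.18) was in 3. Myrip rose in both strains, more in A/J (1.94 ± 0.17 against 0.74 ± 0.17, the latter call lost without resiquimod array 1). Ankrd63 fell in C57BL/6 from 7.28, 7.59 and 7.22 to 5.71, 6.02 and 5.51, while A/J lungs read 3.40 to 3.71 in both groups.

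Cell cycle genes carried part of the strain difference. In A/J 2 of 36 were called higher and 1 lower, with a median of 0.15, against 31 higher in C57BL/6. The difference was called for 8 genes of DNA replication and nucleotide supply, namely Mcm2, Mcm3, Mcm4, Mcm5, Mcm6, Pcna, Tk1 and Cdc6. Mcm5 changed by 0.72 ± 0.12 in C57BL/6 and -0.28 ± 0.12 in A/J (difference 0.99 ± 0.17, adjusted p = 0.0135). These 8 were picked after their values were seen. The NK list gave 16 of 21 higher in A/J against 19, and the class I list 7 of 11 against 10. Fibroblast genes gave 13 lower and 2 higher in A/J against 12 and none. B cell genes gave 1 higher and 1 lower in A/J against 9 higher, with the difference called for 2 of 13, so most single differences did not pass. Siglecf and Emcn were called in opposite directions in the strains, as were 10 more genes. Siglecf fell in A/J from 6.42, 6.80 and 6.94 to 6.34, 5.30 and 6.19 (difference 1.49 ± 0.28), and Emcn fell by 0.53 ± 0.10 (difference 1.26 ± 0.15). Cxcl10 fell in A/J (-1.17 ± 0.27) and was not called in C57BL/6, and the difference of 1.32 ± 0.39 was not called (adjusted p = 0.124).

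**Figure D5:**
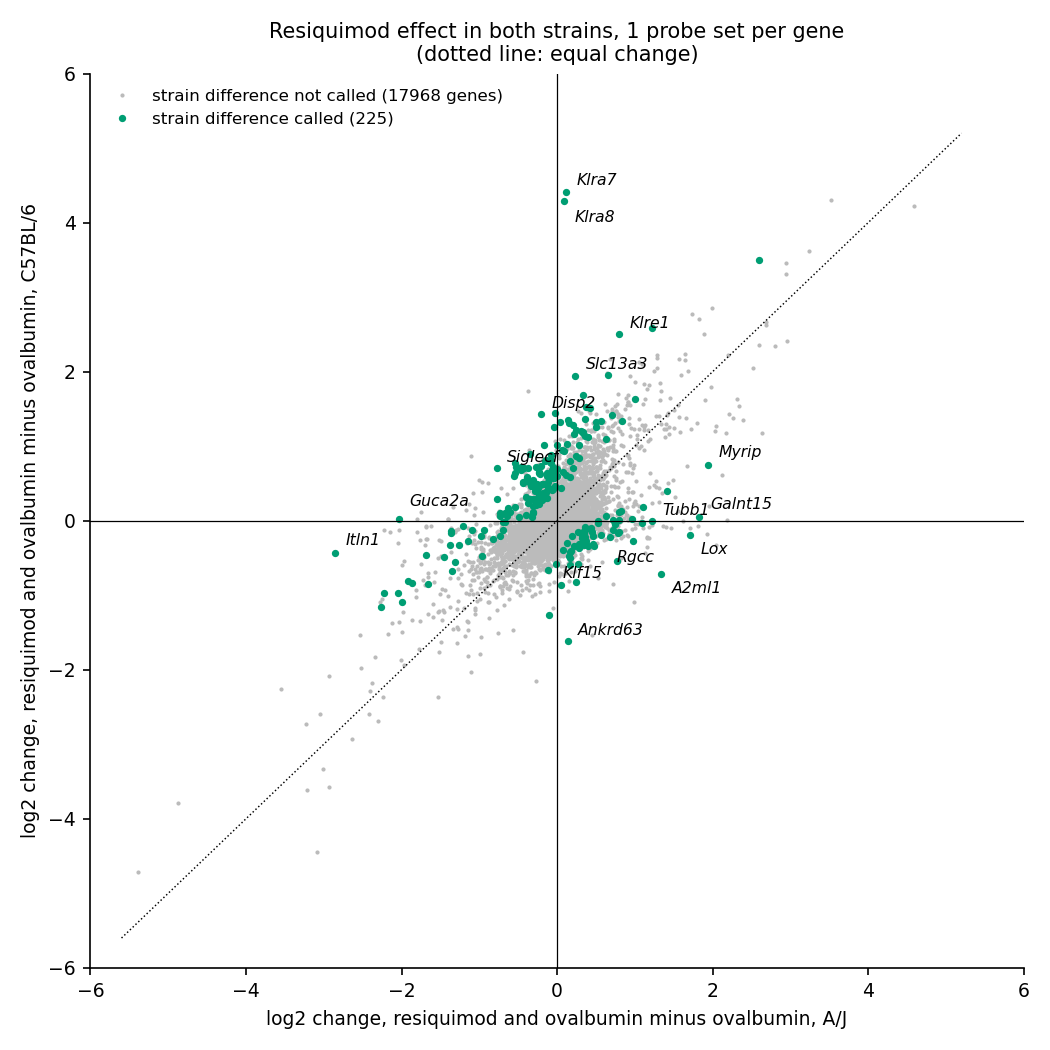
Log2 change in C57BL/6 (vertical axis) against that in A/J (horizontal axis) for resiquimod and ovalbumin minus ovalbumin, 1 point per gene, with a dotted line at equal change. The 225 genes whose strain difference was called are green, and Klra7 and Klra8 lie above 4 in C57BL/6 and near 0 in A/J.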

How the data were processed

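RNA from 18 whole lungs was hybridised to Affymetrix mouse genome arrays, 1 array per mouse. The authors deposited log2 values made with RMA in the affy package, per the submitters' processing notes; versions and settings are not given in the sources used here. RMA forces the arrays onto 1 distribution (array medians 4.77 to 4.80), so changes are relative to the whole array, and it compresses changes of weak signals. No detection calls were used, and 3 arrays per group limit the precision.

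From those values, limma 3.58.1 in R 4.3.3 fitted 6 group means over 45037 probe sets (64 control probe sets were left out of 45101), with 12 residual degrees of freedom, empirical Bayes moderation and Benjamini-Hochberg adjustment. The fit was tested on simulated data. A gene takes its brightest probe set over the 18 arrays among those naming it alone. Probe sets named 1 gene in 34945 cases, several in 932 and none in 9160, and 34741 had a RefSeq entry, whose symbol was used. The members and gene lists were chosen with earlier results of these data known. Genes named are the 12 largest rises and 12 largest falls among called genes whose groups do not overlap, up to 4 called members of each of 40 lists (where none was called, the 2 brightest), always Tlr7, Muc5ac, Ccl11, Cxcl10, Ifng, Il4, Il5 and Il13, and the 8 largest strain differences in each direction. Every other gene named was picked after its values were seen, also where the text does not repeat it. Unnamed and predicted genes were passed over. Alternatives changed the arrays fitted, the filter, scaling, moderation and array weights, or left out arrays. For the lists, another alternative took the medians of change and adjusted p over all probe sets of a gene. Single array measures were compared by an exact permutation test.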

Additional observations from a re-analysis of the deposited data

Results flagged for a closer look

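The effect of resiquimod differed between the strains, by the interaction term of the limma fit (C57BL/6 change minus A/J change, log2), in 24 of the genes named by rule, besides the 8 cell cycle genes given in the report. The values are given without an explanation. The Ly49 receptors stood first, with Klra7 at 4.30 ± 0.14 and Klra8 at 4.20 ± 0.19, followed within the rises by Klre1 at 1.70 ± 0.19, the Fc receptor Fcgr4 at 0.90 ± 0.20, the coreceptor chain Cd8b1 at 1.14 ± 0.21 and the adhesion receptor Cd2 at 1.08 ± 0.19. Genes induced by interferon gamma included Cxcl9 at 1.16 ± 0.25, with changes of 1.52 in C57BL/6 and 0.37 in A/J, and Ido1 at 0.83 ± 0.13.

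Siglecf (1.49 ± 0.28), Emcn (1.26 ± 0.15) and Ddah1 (1.31 ± 0.18) were called higher in C57BL/6 and lower in A/J. The clock repressor Nr1d1 differed by -0.75 ± 0.17. Itln1 (2.41 ± 0.29) and Guca2a (2.06 ± 0.21) differed through A/J falls, and Slc13a3 (1.71 ± 0.16) and Disp2 (1.64 ± 0.24) through C57BL/6 rises. In the other direction stood A2ml1 (-2.06 ± 0.30), Lox (-1.91 ± 0.22), Galnt15 (-1.79 ± 0.18), Ankrd63 (-1.76 ± 0.19), Klf15 (-1.31 ± 0.26), Rgcc (-1.26 ± 0.26), Tubb1 (-1.22 ± 0.22) and Myrip (-1.20 ± 0.24). Over all probe sets of the gene, C57BL/6 changes of Lox ran from -0.20, its brightest, to 0.12, and those of Slc13a3 from 0.10 to 2.18.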

How the results depend on the processing

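Of the 139 called genes named for the main comparison, 90 kept their call under every alternative, 49 lost it under at least 1, and none changed sign. Of the named genes not called, 3 (Ifng, A2ml1 and Klf15) were called under at least 1. Counts of probe sets depended most on the arrays kept. Without all arrays with squamous transcripts, 1398 probe sets were called in the main comparison (3520 with all arrays), 574 in A/J, 6 for the strain difference, 1362 for resiquimod against PBS, 141 for ovalbumin against PBS, and 162 of the list genes (249 with all). Without the 2 such arrays of the main comparison, chosen after seeing the data, 2031 were called. Fitting only the compared groups gave 2412 probe sets in the main comparison (63.3% higher, against 59.1% with all arrays). It gave 1092 in A/J (36.6% higher, against 47.4%), 87 for the strain difference and 273 for ovalbumin against PBS. The strain difference had 585 calls among brighter probe sets and 730 with a trended, robust prior. With 1 array left out, the ranges were 2259 to 3649 (main), 2212 to 3174 (A/J), 138 to 636 (strain difference), 3946 to 5707 and 260 to 527 (resiquimod and ovalbumin against PBS) and 196 to 217 (list genes). The lowest main count was without C57BL/6 resiquimod 3. Fewer arrays enter such fits; other causes were not tested. With the replicate number as a block, 3475 probe sets were called. Deviations of same-numbered arrays correlated at -0.45, -0.48 and 0.38. The largest value, 0.68, joined ovalbumin array 1 and resiquimod array 2, both of which held squamous transcripts. Such values cannot show whether the numbers pair the mice. The block ended 2 of the named calls, Siglecf and Dnajc3. Signals near the bottom of the range, such as Il13 or Ifng, limit what can be called.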
